A study of Mus musculus with 6 samples.

Results

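Glutathione S-transferases (GSTs) join the tripeptide glutathione to reactive, electrophilic molecules, so that these can be excreted or further broken down. In the heart they act on the products of lipid peroxidation and of drugs such as anthracyclines, and several of them are known targets of NRF2, the transcription factor that answers oxidative and electrophilic stress. The soluble enzymes fall into classes named with Greek letters, and many of the alpha, mu, theta and pi genes of the mouse lie in clusters of near copies. The 10 genes described here are *Gsta1*, *Gsta2*, *Gsta3* and *Gsta4* of the alpha class, *Gstm1*, *Gstm2* and *Gstm5* of the mu class, *Gstt1* of the theta class, *Gstp1* of the pi class, and *Gstk1* of the kappa class, an enzyme of mitochondria and peroxisomes. They were chosen by gene symbol, with every array probe of each symbol, out of 27307 symbols on the array. Earlier results of these data were known when they were chosen. A total of 9 of the 10 genes had a probe, 13 probes in all. *Gsta1* had none under its symbol and is not described further.

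RNA of myocardium was hybridised to 1-colour Agilent mouse expression arrays, 1 array per sample, in 2 groups of 3. All the mice were male C57BL/6J Clk4-cKO animals. Their *Clk4* gene, which encodes a splicing and signalling kinase, was floxed on both alleles and deleted in cardiomyocytes with tamoxifen through α-MHC-MerCreMer, a Cre driven by the α-myosin heavy chain promoter. An adeno-associated virus of serotype 9 carried nexilin (NEXN), an actin-binding protein of the Z-disc, as the wild-type protein (NEXN-WT, the control) or as NEXN-S437E, in which serine is replaced by glutamate to mimic phosphorylation. The vector used a CMV promoter, which is not restricted to cardiomyocytes, and carried GFP. Per the study's methods, virus was given at 5 weeks of age and tamoxifen between 6 and 8 weeks. The study examined Clk4-cKO hearts 3 weeks after tamoxifen began, and no separate age is given for the hearts on the arrays in the sources used here. Both groups therefore shared the *Clk4* deletion, the Cre, tamoxifen and a NEXN virus, and hearts with intact *Clk4* were not analysed here. The comparison asks what the phospho-mimic changes in a *Clk4*-deleted heart.

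All 6 arrays lay on 1 slide and were scanned once. The 75th percentile of the signal ran from 110 to 273 units, and 41.9% to 47.8% of spots were well above background. NEXN-WT 1 had the brightest array and stood furthest from its own group, with a mean absolute log2 difference of 0.41 from the other 2 NEXN-WT arrays, against 0.24 to 0.34 for the other 5 arrays. All 10 cardiomyocyte markers were measured on every array, among them *Myh6*, *Tnnt2* and *Ryr2*, so the labelled tissue was borne out. Levels below are log2 signals minus the array's own 75th percentile. They compare arrays for 1 probe and say nothing of one probe against another. Fold changes are NEXN-S437E over NEXN-WT, each p comes from limma, and adjusted p values follow Benjamini and Hochberg over all 22998 probes tested. The labels do not say that the samples came from separate litters or days, so p values measure the spread between these samples.

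Probe sequences carry 2 limits of the measurement, and are shown for that reason as 30-base stretches, 5′ to 3′, with positions in the mouse build mm9 of the array design. The first concerns *Gsta2* and *Gm10639*, a predicted alpha-class gene of the same cluster on chromosome 9. The *Gsta2* probe (chr9:78178856-78178915) and the *Gm10639* probe (chr9:78153243-78153302) matched at 58 of 60 bases once 1 inserted base was allowed, and shared an unbroken run of 30 bases. Within the stretch shown they differ by G23T, counted from the 5′ end of the probes with the base of *Gm10639* first. A further probe, A_30_P01018914, which the array annotates as a lincRNA (chr9:78116834-78116893), ends with the 10 bases that open both of the others. Capitals mark these 10 bases.
A_30_P01018914, bases 31 to 60: agtgaagctgcattgatggaGCCACAGATA
Gm10639, first 30 bases: GCCACAGATActggcctctaatggtttgca
Gsta2, first 30 bases: GCCACAGATActggcctctaattgtttgca
The second limit concerns *Gstm1*, which had 2 probes. One is placed inside the mu cluster on chromosome 3 (chr3:107815595-107815654) and the other on chromosome 5 (chr5:117082490-117082549), away from the gene that it is named for.
Gstm1, probe on chromosome 3: atcgcaacacctatattttcaaagatggcc
Gstm1, probe on chromosome 5: tgttcctggtggaggagcctccccaggcct
No other probe of the array shared 20 or more bases with a probe of the 10 genes. Probes were compared with probes and not with transcripts, so binding to the RNA of near copies was not tested.

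The 12 member probes bright enough to be tested were all higher on average in NEXN-S437E hearts than in NEXN-WT hearts, by 0.32 to 1.23 on the log2 scale with a median of 0.56. The median over all tested probes was 0.09, and 60.8% of them had a positive fold change. A log2 fold change of 0.56 or more was found for 6.39% of all tested probes. Of the 12 probes, 9 were higher at an unadjusted p below 0.05, against 10.5% of all probes in that direction. None was lower at that level, against 6.70% of all probes. No member probe reached an adjusted p of 0.05, which 0.161% of all probes did, and the smallest adjusted p among them was 0.151. In 10 of the 12 every NEXN-S437E array lay above every NEXN-WT array, against 18.7% of all probes. *Gsta2*, which gave the 1.23, counts in these numbers but entered the test only through the NEXN-S437E arrays, where it was higher. With probes required to be well above background on all 6 arrays, 11 members were tested and all were higher, with a median of 0.53. Of these, 8 had an unadjusted limma p below 0.05, against 11.6% of all probes higher. These shares describe a list chosen with earlier results of these data known, and are no test of it.

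**Figure D1:**
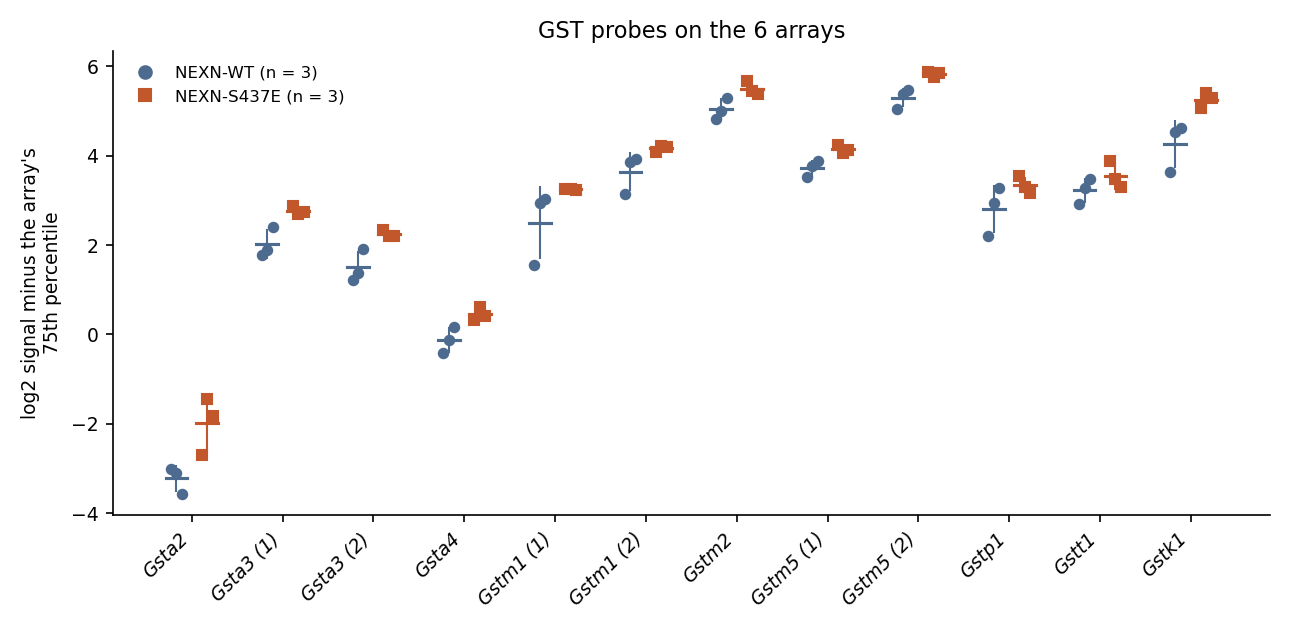
Levels of the 12 tested GST probes on each array, as log2 signal minus the 75th percentile of the array, with the 3 arrays of each group in the order of their numbers, the group mean (bar) and 1 SD (line). Probes of 1 gene are numbered in brackets, and heights of different probes cannot be compared. The groups overlap only for *Gstp1* and *Gstt1*, and NEXN-WT 1 is the lowest array for every probe but *Gsta2*.

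Among probes passing the filter, the largest value was that of *Gsta2*, followed by *Gstk1* and *Gsta3*. *Gsta2*, a major alpha enzyme of the liver, was dim in the heart, at -3.01, -3.09 and -3.56 in the NEXN-WT arrays and -2.70, -1.44 and -1.81 in the NEXN-S437E arrays. The groups did not overlap, but NEXN-S437E 1 lay close to the controls. Its probe was well above background on 2 of the 3 NEXN-WT arrays and on all 3 NEXN-S437E arrays. The log2 fold change was 1.23 ± 0.32 (SE, n = 3 and 3), with a 95% interval of 0.50 to 1.97, an unadjusted limma p of 0.00483 and an adjusted p of 0.153. It thus entered the test only through the NEXN-S437E arrays, where it was higher, and a filter on all 6 arrays drops it. It was the only member probe past both a 2-fold change and an unadjusted p of 0.05, which 0.735% of all probes passed upwards. It did not pass without NEXN-S437E 2. With the slide row as a block, the lowest value over all alternatives, its log2 fold change was 0.52. Since its probe is so like that of *Gm10639*, the share of its signal that comes from *Gm10639* RNA was not tested.

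*Gsta3*, an alpha enzyme known for conjugating aflatoxin and for isomerising steroid precursors, had the smallest p of the members. Its first probe (chr1:21255189-21255248) read 1.77, 1.89 and 2.40 in NEXN-WT and 2.87, 2.69 and 2.74 in NEXN-S437E. The log2 fold change was 0.75 ± 0.19 (SE), with an interval of 0.30 to 1.19, a limma p of 0.00464 and an adjusted p of 0.151. A second probe just upstream (chr1:21255043-21255102) gave nearly the same picture, with NEXN-WT at 1.23, 1.38 and 1.92 and NEXN-S437E at 2.34, 2.20 and 2.20, and a log2 fold change of 0.74 ± 0.20. The groups were apart on both probes, with NEXN-WT 3 the highest of the controls. Another *Gsta3* probe, further upstream (chr1:21246334-21246393), was too dim on all 6 arrays and was not tested.

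*Gsta4* encodes the alpha enzyme with the strongest known activity towards hydroxynonenal, a toxic aldehyde from oxidised membrane lipids. Its probe spans a splice junction (chr9:78046172-78047344). It read -0.42, -0.13 and 0.16 in NEXN-WT and 0.32, 0.62 and 0.42 in NEXN-S437E, again without overlap. The log2 fold change was 0.58 ± 0.19 (SE), with an adjusted p of 0.206.

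The mu class had 3 member genes with 5 probes. *Gstm1*, a main soluble GST of liver and other organs, read 1.56, 2.93 and 3.02 in NEXN-WT and 3.26, 3.26 and 3.22 in NEXN-S437E on the probe within the gene cluster. One control array, NEXN-WT 1, sat more than 1 log2 unit below everything else, and the other 2 controls were close to the NEXN-S437E arrays. The log2 fold change of 0.74 ± 0.36 (SE) had an interval of -0.09 to 1.57 and a limma p of 0.0737. Without NEXN-WT 1 it was 0.27. The probe placed on chromosome 5 behaved alike, with NEXN-WT at 3.13, 3.85 and 3.92 and NEXN-S437E at 4.08, 4.21 and 4.19. Its log2 fold change was 0.53 ± 0.22 with a limma p of 0.0456, and 0.27 without NEXN-WT 1, where the p was above 0.05.

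*Gstm2*, a mu enzyme abundant in muscle, read 4.82, 5.01 and 5.29 in NEXN-WT and 5.67, 5.45 and 5.38 in NEXN-S437E. The groups did not overlap, and the log2 fold change was 0.46 ± 0.17 (SE), with a limma p of 0.0296 that was above 0.05 without NEXN-WT 1. *Gstm5*, a mu enzyme known best from brain and testis, had 2 probes that agreed. The first read 3.53, 3.77 and 3.88 against 4.24, 4.06 and 4.12. The second read 5.05, 5.37 and 5.47 against 5.86, 5.75 and 5.84. Their log2 fold changes were 0.41 ± 0.15 and 0.52 ± 0.16 (SE), with adjusted limma p values of 0.247 and 0.193.

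Among the 10 genes, the largest step outside the alpha class was in *Gstk1*, whose product sits in mitochondria and peroxisomes and shares no close ancestry with the other soluble GSTs. Its probe (chr6:42200381-42200440) read 3.64, 4.52 and 4.61 in NEXN-WT and 5.07, 5.40 and 5.28 in NEXN-S437E. Every NEXN-S437E array stood clear of the controls. The fold change was 1.99, or 0.99 ± 0.26 on the log2 scale (SE), with an interval of 0.38 to 1.60 and a limma p of 0.0056 that became 0.159 after adjustment. Without NEXN-WT 1 the log2 fold change was 0.68. The start of its probe is shown as that of the largest difference among the 10 genes outside the alpha class.
Gstk1, first 30 bases: acaagtgccttttgaaaagccttaaattct

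For *Gstp1* and *Gstt1* the groups overlapped. *Gstp1*, the pi enzyme, which also binds the stress kinase JNK, read 2.21, 2.93 and 3.27 in NEXN-WT and 3.54, 3.30 and 3.16 in NEXN-S437E. Its log2 fold change was 0.53 ± 0.27 (SE), with an interval of -0.09 to 1.15 and a limma p of 0.0838. *Gstt1*, a theta enzyme that acts on small halogenated compounds, read 2.92, 3.28 and 3.47 against 3.88, 3.47 and 3.29. Its log2 fold change of 0.32 ± 0.21 had an interval of -0.17 to 0.81. Without NEXN-WT 1 these log2 fold changes were 0.23 for *Gstp1* and 0.17 for *Gstt1*. Neither interval excludes 0, and neither excludes a change as large as that of *Gsta4*.

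**Figure D2:**
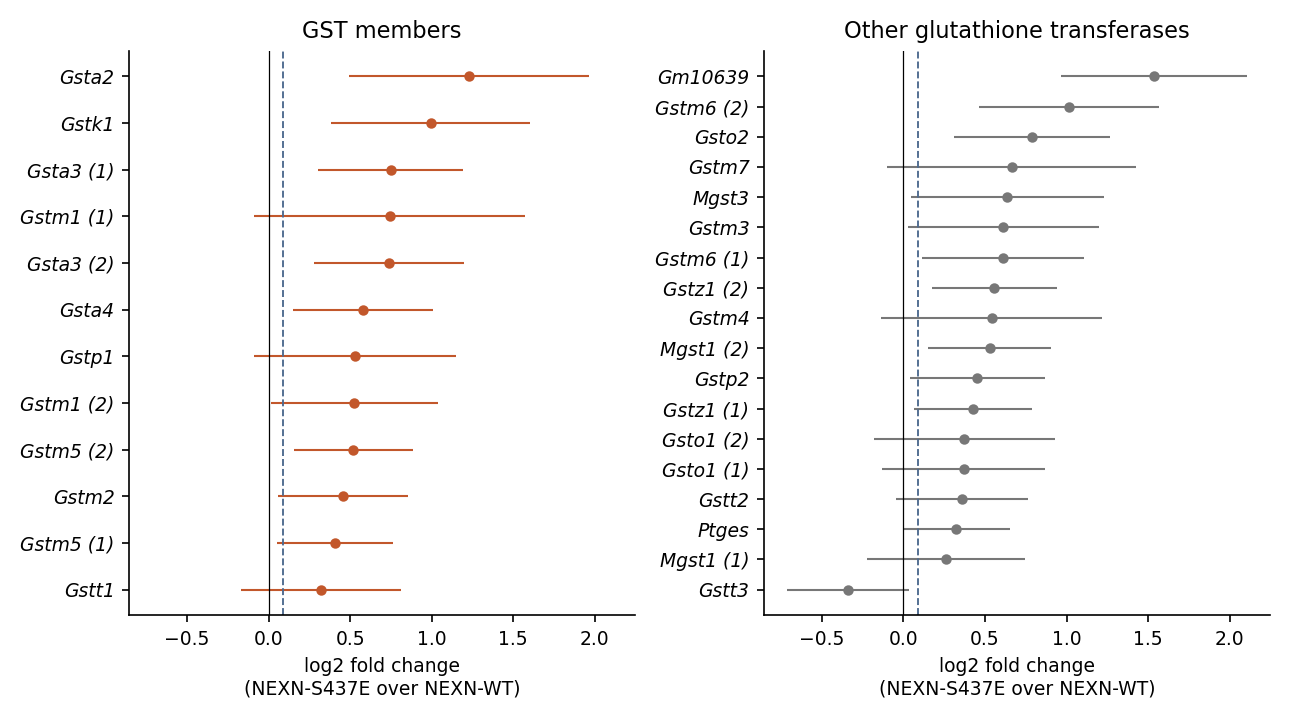
Log2 fold changes (NEXN-S437E over NEXN-WT) with 95% limma intervals for the 12 tested GST probes (left) and the 18 tested probes of other glutathione transferases (right). The dashed line is the median of all tested probes, 0.09, and of both panels only *Gstt3* lies below it.

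The members did not vary independently from array to array. NEXN-WT 1 was the lowest array for 11 of the 12 probes, and the highest was NEXN-S437E 1 for 7 and NEXN-S437E 2 for 5. The median deviation of the 12 probes from their own means was -0.60 in NEXN-WT 1, -0.21 in NEXN-WT 2 and 0.01 in NEXN-WT 3, against 0.35, 0.30 and 0.29 in the NEXN-S437E arrays. The controls were therefore the spread group, with a median SD of 0.32 against 0.12. Over all tested probes that median ran from -0.11 in NEXN-WT 1 to 0.07 in NEXN-S437E 1. The median over the 10 cardiomyocyte markers was also lowest in NEXN-WT 1 and higher in NEXN-S437E, in another order within the groups, although *Myl2* and *Ttn* were highest of the controls there. It was a deviation of -0.51 in NEXN-WT 1, -0.08 and -0.11 in the other 2 controls, and 0.10, 0.23 and 0.29 in the NEXN-S437E arrays. In bulk tissue, fewer cells of a type and less RNA per cell cannot be told apart.

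**Figure D3:**
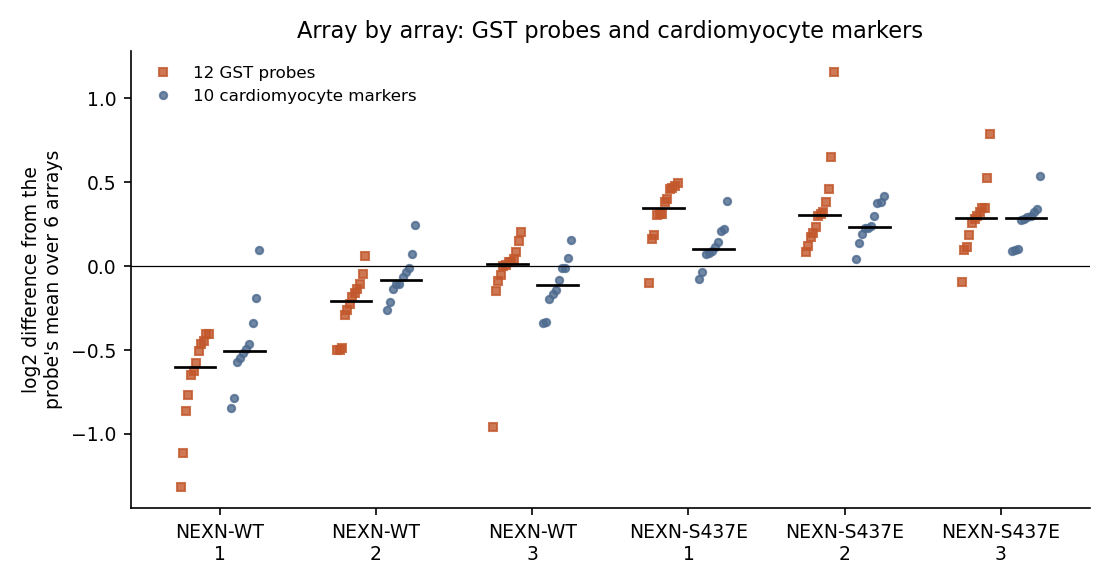
Log2 difference of each probe from its own mean over the 6 arrays, for the 12 tested GST probes and 10 cardiomyocyte markers (1 probe each), with medians as bars. In NEXN-WT 1 the median is -0.60 for GST probes and -0.51 for the markers, and in NEXN-WT 3 it is 0.01 and -0.11.

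Leaving out NEXN-WT 1 kept all 12 differences positive, at 0.17 to 1.34 with a median of 0.37, and 7 probes at an unadjusted p below 0.05, against 7.90% of all probes higher in that setting. Without NEXN-S437E 2, 5 probes were below it, against 5.58%. Under another scaling of the arrays, with the 75th percentile taken over detected probes only, the median of all probes moved from 0.09 to -0.03 and that of the members from 0.56 to 0.44, a shift of all probes alike. The distance between the 2 medians was 0.47 as reported and 0.48 after quantile normalization, 0.34 with normexp background correction, 0.38 with array weights, 0.32 without NEXN-WT 1 and 0.27 without the filter on dim probes. When limma weighted the arrays by their quality, 8 of the 12 probes reached an adjusted p of 0.05, as did 16.6% of all probes. Within the slide row that held 3 NEXN-WT arrays and NEXN-S437E 1, all 12 differences were positive with a median of 0.64. This rests on 1 NEXN-S437E array, the highest for 7 of the 12 probes, with no spread of its own. Since limma takes that array to vary like the controls, only the sizes of these differences are given.

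**Figure D4:**
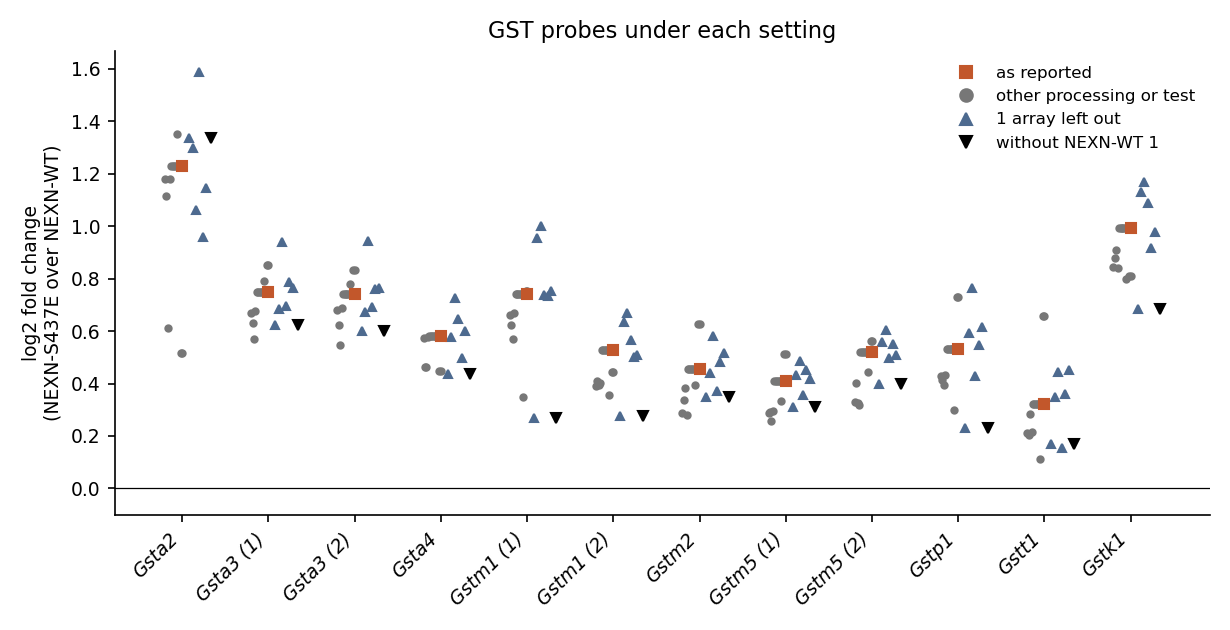
Log2 fold change of each tested GST probe as reported, under each other processing or test, and with 1 array left out in turn. Every point is above 0, and for both *Gstm1* probes the value without NEXN-WT 1 is 0.27.

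The authors' own normalized log2 values gave the same signs. On that scale the 12 differences ran from 0.21 for *Gstt1* to 1.18 for *Gsta2*, with a median of 0.51, and 7 probes had an unadjusted limma p below 0.05, against 7.65% of all probes higher.

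The relatives of the 10 genes showed the same direction with 1 exception. Of 21 other glutathione transferases listed, 14 were tested by their brightest probe, and 13 of these had a positive fold change. A total of 8 were higher at an unadjusted p below 0.05, against 10.1% of all 13747 genes tested in this way, and none was lower, against 7.91%. Their median was 0.55. *Gm10639*, the near copy of *Gsta2*, read -1.17, -1.46 and -1.1 in NEXN-WT and -0.22, 0.73 and 0.36 in NEXN-S437E. Its log2 fold change of 1.53 ± 0.25 (SE), a 2.90-fold difference, had a limma p of 0.000264 and an adjusted p of 0.079. The other relatives are named after their values were seen. *Gsto2*, an omega enzyme that reduces dehydroascorbate, differed by 0.79. *Gstz1*, the zeta enzyme of tyrosine breakdown, differed by 0.56 on its brighter probe. The pi copy *Gstp2* differed by 0.45, and *Gstm3* of the mu class by 0.61. *Mgst1* and *Mgst3*, membrane enzymes of a separate family, differed by 0.53 and 0.64. Without NEXN-WT 1, *Gstp2* differed by 0.28, *Gstm3* by 0.31 and *Mgst3* by 0.33. The 2 probes of *Gstm6*, of the mu class, differed by 1.02 and 0.61, and by 0.98 and 0.46 without that array. *Gstt3*, a theta enzyme, was the exception at 1.5, 1.2 and 1.4 in NEXN-WT and 1.17, 1.1 and 0.81 in NEXN-S437E. Its log2 fold change was -0.34 ± 0.16 with a limma p of 0.0694, and in 5 of 19 alternatives, quantile normalization and the authors' values among them, the p was below 0.05.

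The positions of the probes allow the clusters to be described with their neighbours. Counts at an unadjusted limma p below 0.05 are to be read against 10.5% of all probes higher and 6.70% lower. In the mu cluster (chr3:107701101-107846847), all 9 tested probes of GST genes had a positive fold change with a median of 0.61, and 6 had an unadjusted p below 0.05. The 12 tested probes of other genes within 200000 bases on either side, such as *Csf1*, *Ampd2* and *Gnai3*, had a median of -0.04, with 1 higher and 2 lower at that level. In the pi cluster 1 of 2 GST probes was higher, and 28 neighbouring probes had a median of 0.20, with 3 higher and 1 lower. In the theta cluster none of 3 GST probes was past that level, while 3 of 10 neighbouring probes were higher. In the alpha cluster of chromosome 9 (chr9:78046172-78178915), *Gsta4*, *Gm10639* and *Gsta2* lay with 2 unnamed probes between them, and these were chosen after their values were seen. With them, 14 probes not named for a GST gene were tested in and beside this cluster, with a median of 0.18, 3 higher and 1 lower. The 2 unnamed probes are among the 3 higher ones. The other higher one was *Mto1*, at 0.63. The array annotates both unnamed probes as lincRNAs. A_30_P01020518 (chr9:78116774-78116833) read -1.65, -1.65 and -1.28 in NEXN-WT and -0.24, 0.23 and -0.14 in NEXN-S437E. Its log2 fold change of 1.48 ± 0.19 (SE) had an adjusted limma p of 0.0336, the only one below 0.05 in these 4 clusters and their flanks. A_30_P01018914, which begins at the next base, read -0.62, -0.94 and -0.53 against 0.31, 1.01 and 0.72, with a log2 fold change of 1.38 ± 0.21 and an adjusted p of 0.0701. RefSeq promoters, on the later build GRCm38.p6, lie here in the order *Gsta1*, *Gm3776*, *Gm10639* and *Gsta2*, with none listed for *Gsta4*. Which transcript the 2 unnamed probes detect was not tested.

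**Figure D5:**
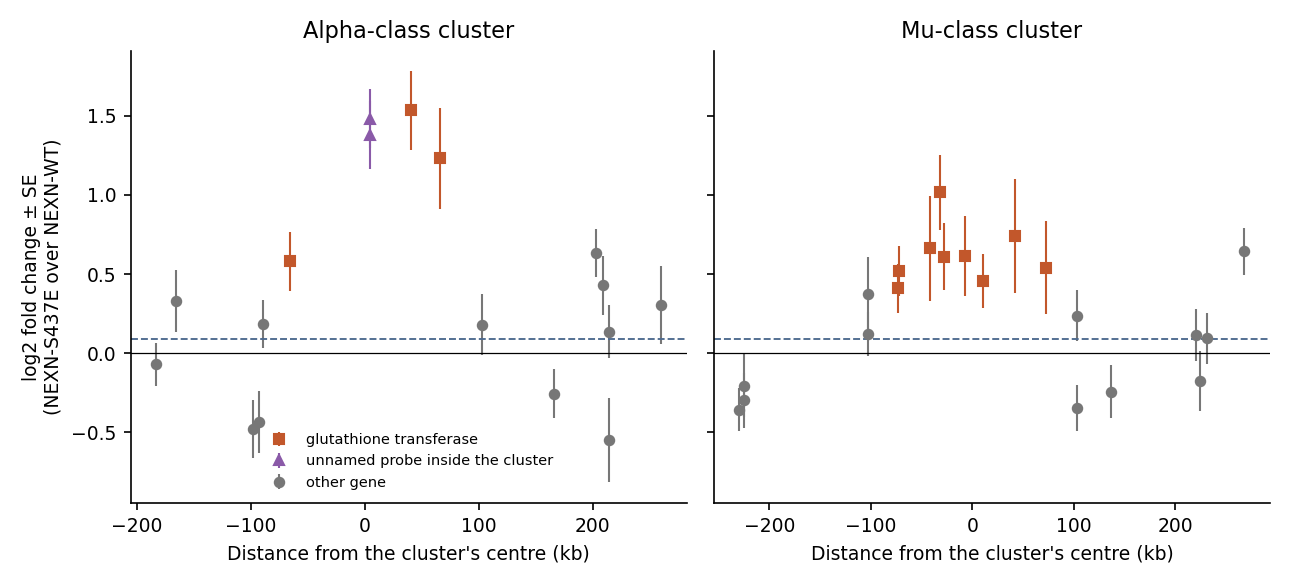
Log2 fold change ± SE (NEXN-S437E over NEXN-WT) of every tested probe in and within 200000 bases of the alpha-class and mu-class clusters, by distance from the cluster's centre in kilobases. GST genes and the 2 unnamed probes stand above 0.4, as do 3 probes of the flanks (both *Mto1* probes beside the alpha cluster and an unnamed one beside the mu cluster), and the dashed line is the median of all tested probes, 0.09.

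The rest of the glutathione pathway was counted in the same way. Among 25 tested genes of glutathione synthesis, recycling and use, 3 were higher and 2 lower at an unadjusted p below 0.05, with a median of 0.23. Both shares lay near those of all genes, 10.1% higher and 7.91% lower, so the count is no result about this list. *Oplah*, the oxoprolinase that recycles glutamate for glutathione, read 1.12, 1.89 and 1.77 in NEXN-WT and 2.47, 2.40 and 2.25 in NEXN-S437E, a log2 fold change of 0.79 ± 0.22. *Gpx3*, the secreted glutathione peroxidase, was lower, at 4.64, 4.83 and 4.52 against 4.2, 4.17 and 4.06, a log2 fold change of -0.52 ± 0.15. *Ggt5* and *Ggct*, both of glutathione breakdown, differed by 0.41 each. The adjusted limma p values of these 4 genes ran from 0.167 to 0.258. *Gclc*, the catalytic subunit of the rate-limiting ligase, differed by 0.05 ± 0.15.

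The median of the NRF2 list lay near that of all genes. Of its 26 tested genes, 4 were higher and 2 lower at an unadjusted p below 0.05, against 10.1% and 7.91% of all genes, and its median was 0.08 against 0.07. *Me1*, malic enzyme, and *Aox1*, aldehyde oxidase, differed by 0.53 ± 0.14 and 0.52 ± 0.16. *Ugdh*, which makes UDP-glucuronate, and *Cbr3*, a carbonyl reductase, differed by -0.60 ± 0.15 and -0.48 ± 0.13. The adjusted limma p of these 4 ran from 0.135 to 0.192. Outside the naming rule, *Nqo1*, a standard NRF2 target, differed by 0.36 ± 0.15 with an adjusted p of 0.268. *Nfe2l2*, which encodes NRF2, differed by 0.11 ± 0.14.

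Of 14 tested genes of xenobiotic metabolism, 2 were higher and 1 lower at an unadjusted p below 0.05, with a median of -0.05, again near the shares of all genes. *Ephx2*, the soluble epoxide hydrolase, had the smallest p of the list, at 0.00417, with a log2 fold change of 0.72 ± 0.18. Those past a 2-fold change were *Ces1d* and *Cyp1b1*. *Ces1d*, a carboxylesterase, read -0.22, 1.82 and 1.70 in NEXN-WT and 2.38, 2.43 and 2.67 in NEXN-S437E. *Cyp1b1*, a cytochrome P450 of stromal cells, read 2.50, 1.23 and 1.1 against 0.74, 0.23 and 0.36. For both, NEXN-WT 1 was the extreme control, and without it the log2 fold changes went from 1.39 to 0.73 and from -1.17 to -0.72.

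Some cell type marker lists moved with the groups and others did not, to be read against 10.1% of all genes higher and 7.91% lower at the same level. At an unadjusted p below 0.05, none of 7 endothelial and none of 3 erythrocyte markers differed, 1 of 7 macrophage markers and 1 of 6 smooth muscle and pericyte markers were lower, and so was the 1 B cell marker tested. The 1 adipocyte marker tested did not pass. Of 8 salivary gland genes, *Amy1* alone was tested and was 2.35-fold higher, with an adjusted limma p of 0.045. All 10 cardiomyocyte markers had a positive fold change with a median of 0.42, and 5 had an unadjusted p below 0.05. None did after quantile normalization of the arrays. Their summed level ran from 10.99 to 11.38 in NEXN-WT and from 11.61 to 11.69 in NEXN-S437E. All 8 fibroblast markers had a negative fold change, 6 of them at an unadjusted p below 0.05, with a median of -1.10 and summed levels of 9.305 to 9.995 against 8.82 to 8.92. The T and NK cell list was lower in all 6 tested genes, with a median of -2.41, and sums of 1.25 to 2.12 against -0.35 to 0.21. *Cd3g* and *Klrd1* were above background on 3 arrays and *Gzmb* on 4, so they were tested only through the NEXN-WT arrays, where they were high. Their fold changes, and the median that rests on them, are not exact sizes. Of the genes above background on all 6 arrays, 3 were lower. Of the 6 liver genes listed, *Apoa1*, *Ttr*, *Fgb* and *Cyp3a11* were well above background on no array and *Alb* on 2. The sixth, *Ahsg*, was above it on all 6 and differed by 0.47 with a limma p of 0.0317. The part of these shifts in the GST values was not tested.

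The promoters of the members were searched for the core of the antioxidant response element, TGACNNNGC, the site bound by NRF2 with a small MAF protein. Both strands were read over the 250 bases before each RefSeq start (GRCm38.p6). The core was present for 2 of the 9 members in the promoter table, *Gsta3* and *Gstm5*, against 11.5% of 27025 genes. *Gsta4* is not in that table. In the NRF2 list 8 of 25 genes held it. The 2 matches are shown with 10 bases on either side and the core in capitals, as read on the strand of the gene. A match is a string of letters and not a shown site of binding.
Gsta3, chr1:21240454-21240482, plus strand: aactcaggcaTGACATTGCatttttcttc
Gstm5, chr3:107895802-107895830, plus strand: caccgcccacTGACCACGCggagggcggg
*Gsta3* differed by 0.75 and the *Gstm5* probes by 0.41 and 0.52. The other 7 members in the table, *Gsta1*, *Gsta2*, *Gstk1*, *Gstm1*, *Gstm2*, *Gstp1* and *Gstt1*, had no match, and the 6 of them that were measured differed by 0.32 to 1.23.

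Over the 6 arrays, the pattern most like that of the first *Gsta3* probe was that of its own second probe, with a Pearson r of 0.999. The 5 other genes with the highest r were *Ppid*, *Smim4*, *D230025D16Rik*, *Retnla* and *Scd4*, with r of 0.994 to 0.998. These r describe 6 arrays in 2 groups and are given without a test.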

How the data were processed

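The samples were 3 NEXN-WT and 3 NEXN-S437E myocardia on Agilent arrays. The authors deposited scanner files from Feature Extraction 10.7.1.1 (version per the submitters' processing notes), whose processed signal intensities are background-subtracted, and a table of normalized log2 signals, which the authors made by a method not given in the sources used here. For this work log2 processed signals were centred on each array's 75th percentile, outlier spots were dropped, spots of a probe averaged, and probes kept if well above background on all 3 arrays of a group (22998 of 56605). No member spot was saturated. Groups were compared with limma 3.58.1 in R 4.3.3, with a 95% interval unadjusted for multiple tests. The fit was tested on simulated data. With 3 arrays a group, their number limits the precision.

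Lists used the probe of highest mean per gene. Members, lists and tests were chosen with earlier results of these data known. Named were all members, list genes past 2-fold with an unadjusted p of 0.05 (or an adjusted p of 0.05) or else the 4 of smallest p, probes sharing 20 bases with a member probe, and the 5 genes most like the leading member. Relatives and the unnamed cluster probes were added after seeing values. The alternatives covered scaling, background correction, filters, tests, blocks and each array left out. Expression of *Gsta1* was not analysed here.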

Additional observations from a re-analysis of the deposited data

How the results depend on the processing

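All tested member probes kept a positive fold change under every alternative run. Several of these (the t-test, the intensity trend, the replicate block and the filters) change only the error or the probes tested and cannot turn a sign. The number at an unadjusted p below 0.05 was 9 as reported, against 10.5% of all probes higher. It was 6 with quantile normalization (7.47% of all probes), the percentile over detected probes (6.26%) or no filter (10.2%), and 5 with the slide row as a block (4.56%). With 1 array left out it was 5 to 11, against 5.58% to 12.9% of all probes, and the 5 came without NEXN-S437E 2. The block and the fit within the slide row holding both groups give 1 and the same contrast, NEXN-S437E 1 against the 3 controls. They differ only in the spread they use. The number with an adjusted p below 0.05 was 8 with array weights and 0 to 0 with 1 array left out. The number past 2-fold was 1 as reported (*Gsta2*), and 4 at 1.5-fold. It was 0 with normexp, with a filter on all 6 arrays (which drops *Gsta2*) and with the slide row as a block. With 1 array left out it ran from 0 to 3. The median ran from 0.37 to 0.75.

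Of the other transferases, 8 were higher, but 5 with quantile normalization, the percentile over detected probes, the authors' values, no filter or the methods' t-test, 2 with the slide row as a block, and 4 to 12 with 1 array left out. None was lower, but 1 was with quantile normalization, the percentile over detected probes, normexp, the authors' values, no filter, array weights or without NEXN-WT 2. In the 3 other pathway lists, 9 were higher, but 5 with the percentile over detected probes or the slide row, 16 with array weights, and 5 to 16 with 1 array left out, 16 being without NEXN-WT 3. There 5 were lower, but 8 with quantile normalization, normexp or the authors' values, 3 with the slide row, and 4 to 6 with 1 array left out. Of the cardiomyocyte markers, 5 were higher, but 0 with quantile normalization, the authors' values or the slide row, 1 with no filter or the t-test, 2 with the percentile over detected probes or normexp, 8 with array weights, and 1 to 5 with 1 array left out. Of T and NK genes, 6 were lower, but 2 with normexp, 3 with the filter on all 6 arrays, and 4 to 7 with 1 array left out. Of the fibroblast markers, 6 were lower, but 7 with quantile normalization or the authors' values, 5 with the t-test or the slide row, and 5 to 6 with 1 array left out. The dimmer *Mgst1* probe turned from 0.26 to -0.12 with the slide row as a block and within 1 row. The causes were not tested.

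Over all probes, 2423 were higher and 1542 lower, against 1717 and 1878 after quantile normalization, 1440 and 2314 with the percentile over detected probes, and 1760 and 1868 with the authors' values. An adjusted p below 0.05 was reached by 37 probes, but by 3820 with array weights, 80 with an intensity trend, 7 without a filter and 0 with the methods' t-test (1954 higher and 1187 lower unadjusted). With the replicate number as a block, 7 member probes had an unadjusted limma p below 0.05, against 8.16% of all probes higher, with a median of 0.56. The numbers do not pair the samples: same-numbered arrays had correlations of deviations of -0.15, -0.03 and -0.18.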
